A study of Mus musculus with 2 samples.

Results

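The nuclear receptor gene family was followed in the peak lists of a ChIRP-seq experiment on *Gm19619*, a long non-coding RNA of the mouse liver. The family was taken as 45 listed genes of the 21938 protein-coding genes that GENCODE vM21 places on chromosomes 1 to 19, X and Y of mm10. A peak was assigned to a gene when it overlapped the gene body or the 5000 bp on either side of it. In ChIRP, DNA probes that carry biotin and are antisense to an RNA pull that RNA out of fixed, sheared cells, and the DNA fixed to it is sequenced. Hepatocytes of 4 wild-type female C57BL/6 mice aged 8 weeks were pooled, fixed in 3% formaldehyde for 10 min and divided between an odd-numbered and an even-numbered set of 7 probes. Each probe set gave 1 library, from animals that shared genotype, sex, age and pool, so there were no replicates, no treated group and no test between conditions. The peaks measure recovered DNA and hold no information on how strongly a receptor gene was expressed.

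Nuclear receptors are transcription factors that bind DNA through zinc fingers, and many of them are switched by small lipophilic ligands such as steroids, thyroid hormone, retinoids, oxysterols, bile acids and fatty acids. Several bind as heterodimers with a retinoid X receptor, and they recruit coactivators or corepressors according to the ligand they hold. In the liver, members of the family control bile acid and cholesterol synthesis, fatty acid oxidation, gluconeogenesis, drug metabolism and the daily rhythm of these pathways.

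An odd peak lay at 23 of the 45 receptor genes (51.1%, 95% Wilson interval 37.0 to 65.0), against 27.0% of all protein-coding genes. An even peak lay at 2 receptor genes (4.44%, interval 1.23 to 14.8), against 7.67% of all protein-coding genes. An odd and an even peak overlapped at 0 of the 45 receptor genes, which allows a share of up to 6.67% when a count of 0 is taken to allow 3, against 0.884% of all protein-coding genes. Receptor genes are long, with a median of 49.2 kb against 17.4 kb for all protein-coding genes, and a long gene has more room for a peak. When each receptor gene was set beside the other protein-coding genes within 1.5 times its length, the mean share of those genes with a peak was 41.4% for the odd list, 13.9% for the even list and 1.36% for overlapping peaks. Those shares correspond to 18.6, 6.24 and 0.614 genes of 45. The odd share of the receptors was thus above the share at similar length with an interval that contained it, and the even share was below it with an interval that contained it too. These intervals cover counting error only.

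After duplicates were dropped, 6972538 of 61155168 mapped reads counted in the odd library and 7052802 of 65783155 in the even one. The odd list held 14261 peaks and the even list 3637. At *Gm19619* itself the odd list had 5 peaks with pileups of up to 114 and the even list 3 peaks with pileups of up to 101. Pileup is the number of reads, each extended to 200 bp, that cover the summit, and fold enrichment is the authors' ratio of that pileup plus 1 to the genome-wide background of the library plus 1.

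Each peak was also searched, on either strand, for stretches that match a probe of its own set over 12 or more bases in a row, termed runs. Shorter matches were not counted, so a peak without a run can still hold a shorter match. Of the 50 odd peaks at receptor genes, 11 held such a run (22.0%, interval 12.8 to 35.2), against 27.2% of the odd peaks at all protein-coding genes. The runs came from probes 1, 7, 9 and 13. They are printed as read on the strand of the probe, grouped by probe to show which part of it each receptor peak carried, and the capitals mark the stretch that all runs of that probe have in common. The sequences come from the reference genome (GRCm38, the same build as mm10).
Probe 1, *Esr1* (chr10:4750143-4750157, plus strand): AGGAGAGTGAAgtgg
Probe 1, *Vdr* (chr15:97879545-97879557, plus strand): aAGGAGAGTGAAg
Probe 1, *Rarb* (chr14:16493243-16493254, plus strand): aAGGAGAGTGAA
Probe 7, *Nr3c2* (chr8:77054070-77054082, plus strand): ACTGAGCTGtgag
Probe 7, *Rora* (chr9:69289541-69289552, plus strand): ggaACTGAGCTG
Probe 7, *Rara* (chr11:98959670-98959681, minus strand): gaACTGAGCTGt
Probe 9, *Rarb* (chr14:16756182-16756194, minus strand): GGGTTCTGGAcag
Probe 9, *Rora* (chr9:69126633-69126645, plus strand): tGGGTTCTGGAca
Probe 9, *Nr6a1* (chr2:38789851-38789862, plus strand): atGGGTTCTGGA
Probe 13, *Rora* (chr9:69380117-69380131, minus strand): AGATGATACGATGTc
Probe 13, *Nr5a1* (chr2:38691438-38691452, minus strand): cAGATGATACGATGT
The runs of probe 13 had 14 bases in common, those of probe 1 had 11, those of probe 9 had 10 and those of probe 7 had 9. Runs of 1 probe were chosen for matching that probe, so some overlap between them follows from the search and is a description only.

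The only even peak with a run was at *Esrrg*, 1 of the 3 even peaks at receptor genes, against 25.3% of the even peaks at all protein-coding genes. It is shown in its surroundings beside 2 of the 3 odd peaks with a run of 15 bases, with the probe run in capitals and the plus strand printed in each case.
*Esrrg*, even probe 4 (chr1:187771127-187771187): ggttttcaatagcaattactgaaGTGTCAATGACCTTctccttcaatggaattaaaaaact
*Esr1*, odd probe 1 (chr10:4750120-4750180): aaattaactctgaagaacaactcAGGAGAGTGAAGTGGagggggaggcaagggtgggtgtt
*Nr5a1*, odd probe 13 (chr2:38691415-38691475): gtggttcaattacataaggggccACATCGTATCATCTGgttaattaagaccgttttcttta
The 2 highest odd peaks at receptor genes held no run of 12 bases of the odd probes searched, and the sequence at their summits is printed for comparison.
*Nr1i3*, 3′ flank, at the start of *Apoa2* (chr1:171225006-171225053): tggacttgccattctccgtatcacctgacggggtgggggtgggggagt
*Esr1*, intron (chr10:4675157-4675217): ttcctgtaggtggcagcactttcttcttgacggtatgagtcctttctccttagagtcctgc

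Runs and height were set side by side over the receptor peaks. The 11 odd peaks with a run had a median fold enrichment of 13.2 (range 6.59 to 25.1), and 8 of them reached 10. The 39 without a run had a median of 7.91 (range 5.28 to 33.0), and 10 of them reached 10. Over all protein-coding genes the medians were 9.89 with and 7.91 without a run. A longer peak has more bases in which a run can fall, and the odd receptor peaks were 200 to 673 bp long (median 283). Length was not held equal between peaks with and without a run, so whether runs go with height apart from length was not tested. The 3 peaks with a run of 15 bases had fold enrichments of 25.1 (*Esr1*), 21.8 (*Rora*) and 16.5 (*Nr5a1*). The 4 with 13 bases lay between 8.57 and 15.2, and the 4 with 12 bases between 6.59 and 14.5. The middle of the run lay a median of 58 bp from the summit and at most 123 bp from it, and the summit base was inside the run at *Rara* alone.

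Not every copy of a run had a peak. The windows of 19 receptor genes held 55 runs of odd probes, of which 11 were inside an odd peak (20%, interval 11.6 to 32.4). For runs of 12 bases the share was 4 of 43 (9.30%, interval 3.68 to 21.6). For 13 bases it was 4 of 8 (50%, 21.5 to 78.5) and for 14 bases 0 of 1. For 15 bases it was 3 of 3 (interval 43.9 to 100). Runs above 12 bases were few. Run sites were not counted over all protein-coding genes, so whether these shares are particular to the receptors was not tested. The run of 14 bases without a peak belonged to probe 9 and lay in *Ppard* at chr17:28285955-28285968. Of 32 runs of even probes, the 1 of 14 bases was inside an even peak, and the 26 of 12 and the 5 of 13 bases were not. None of the 55 odd or 32 even runs was inside a peak of the other list. The windows spanned 5.48 Mb and held 3 even and 50 odd peaks, of median lengths 305 and 283 bp. Such a hit was thus unlikely from the outset, and the 0 is a description only.

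**Figure D1:**
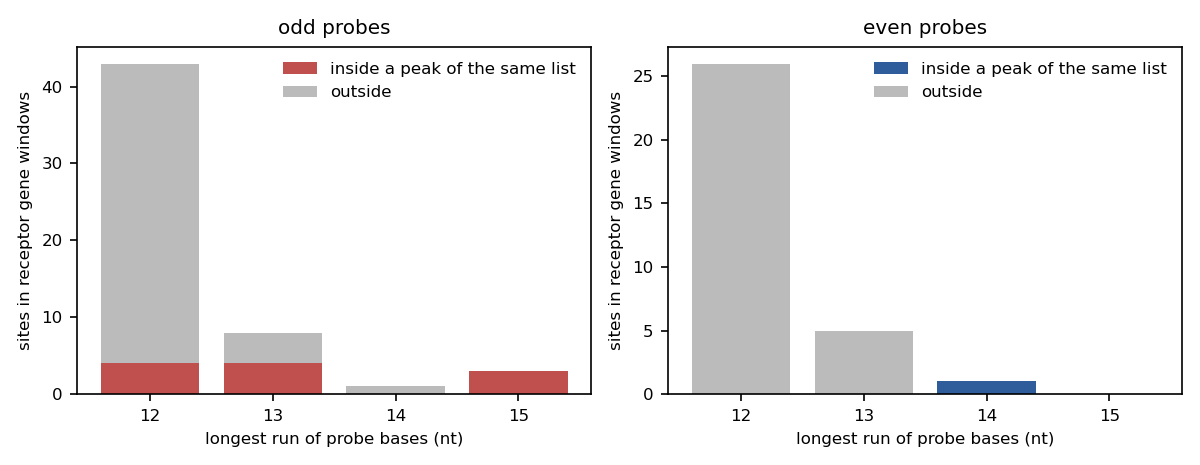
Number of sites in the windows of the receptor genes (y axis) with a run of 12, 13, 14 or 15 bases of an odd (left) or even (right) probe (x axis, nt), divided into sites inside a peak of the same list (coloured) and outside (grey). Of the odd runs, 4 of 43 with 12 bases (interval 3.68% to 21.6%) and 3 of 3 with 15 bases (43.9% to 100%) were inside an odd peak. Sites over all protein-coding genes were not counted.

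The peaks were spread unevenly over the 45 genes. No odd peak lay at 22 of them, 1 at 11, 2 at 6, 3 at 3 and more than 3 at *Rarb* (7), *Rora* (6) and *Esrrg* (5). These 3 genes, of 388, 734 and 606 kb, together held 18 of the 50 odd peaks, where genes of similar length held a summed mean of 8.10, and the other receptor genes held 32 against 26.1. The 3 genes were singled out by their own counts, so their excess over that mean is fixed by the choice. In all, 50 odd peaks (exact Poisson interval 37.1 to 65.9) stood beside 34.2 at similar length, and 3 even peaks (0.619 to 8.77) beside 8.59. These intervals treat peaks as independent, although many shared a gene and each list came from 1 library. They can therefore be too narrow, and an interval that leaves out 34.2 is no test of an excess. The 22 receptor genes without an odd peak lay 8492 to 510764 bp from the nearest one (median 58400), and the 43 without an even peak 14920 to 1362459 bp (median 203000). Expressed per length of gene with its flanks, the receptors had 9.12 odd peaks per Mb against 7.13 over all protein-coding genes, and 0.547 even peaks per Mb against 1.74.

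Divided by length, 4 of 17 receptor genes under 30 kb had an odd peak (23.5%, interval 9.56 to 47.3), against 15.8% of all protein-coding genes of that class. From 30 to 100 kb there were 8 of 15 (53.3%, 30.1 to 75.2), against 36.8%. Over 100 kb there were 11 of 13 (84.6%, 57.8 to 95.7), against 71.1%. The receptor share was the higher one in each class, and each interval contained the share of all genes. The 2 receptor genes with even peaks were both over 100 kb (2 of 13, 15.4%, 4.33 to 42.2), against 28.1% of all protein-coding genes of that length.

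**Figure D2:**
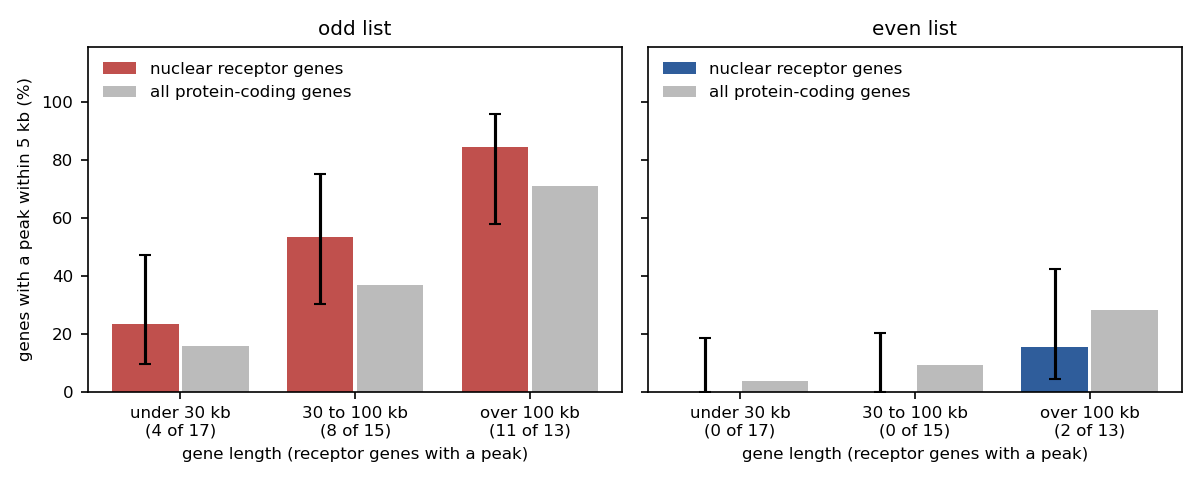
Share of genes with a peak in the gene body or within 5 kb (y axis, percent) by gene length (x axis) for the 45 receptor genes (coloured, with 95% Wilson intervals) and all protein-coding genes (grey), in the odd (left) and even (right) list. The odd share of the receptors was 23.5%, 53.3% and 84.6% from the shortest to the longest class, and each interval contained the grey bar.

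The thyroid hormone receptors and the retinoic acid receptors bind DNA with a retinoid X receptor. *Thrb*, the main thyroid hormone receptor of the liver, had 2 odd peaks. One with a pileup of 18 lay in an intron 30783 bp from the 5′ end of the gene, and one with a pileup of 8 lay in the 3′ untranslated region. *Thra* had no peak, and genes of similar length to these 2 gave a mean share of 55.0% with an odd peak. *Rarb* had the most odd peaks of the family, with pileups of 9, 9, 14, 16, 17, 11 and 19 from its 3′ to its 5′ end, all in introns. The highest had a fold enrichment of 13.2 and held the 13 bases of probe 9, and 1 of pileup 9 held the 12 bases of probe 1. *Rara* had 3 low intronic peaks with pileups of 9, 8 and 9. Their GC content of 60.7% to 67.7% included the highest of the receptor peaks, whose median was 47.9% against 46.4% for all odd peaks at protein-coding genes. The summits of 2 of them lay 1419 and 738 bp from the start of an annotated *Rara* transcript, although 8461 and 31856 bp from the outermost 5′ end of the gene. *Rarg* had no peak, so that 2 of the 3 retinoic acid receptors had one, against 47.4% at similar length.

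The fatty acid sensors had low odd peaks at 2 of 3 genes, against 48.6% at similar length. *Ppara*, which controls fatty acid oxidation in hepatocytes, had 1 odd peak with a pileup of 8 in an intron, 12567 bp from the 5′ end. *Pparg*, better known from fat cells, had 1 with a pileup of 11, and this lay 3615 bp past the 3′ end. *Ppard* had none, and its nearest odd peak was 8492 bp away, the smallest distance among the receptor genes without one.

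Among the receptors tied to the circadian clock, *Rora* and *Nr1d2* had odd peaks (2 of 4 genes, against 51.2% at similar length). *Rora* encodes an activator and *Nr1d2* (REV-ERBβ) a repressor that compete for the same elements. The 6 summits at *Rora* had pileups of 10, 17, 9, 21, 12 and 32 from the 5′ to the 3′ end of the gene. The highest (fold enrichment 21.8, exact Poisson interval of the pileup 21.9 to 45.2) lay in the 3′ untranslated region, 726386 bp from the 5′ end, and held 15 bases of probe 13. The peak of pileup 21 overlapped the 5′ untranslated region of an internal transcript, 212 bp from its start, and held 12 bases of probe 7. *Nr1d2* had a peak of pileup 23 (fold enrichment 15.8, interval of the pileup 14.6 to 34.5) in an intron 25992 bp from the 5′ end and one of pileup 11 at 7271 bp, neither with a probe run. The lower one was 95.3% soft-masked repeat, against a median of 9.91% over the odd peaks at receptor genes. *Nr1d1* and *Rorb* had no peak.

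The sterol, bile acid, vitamin D and xenobiotic receptors include several of the best-known receptors of the liver, and 3 of 6 had an odd peak, against 27.5% at similar length. *Nr1i3* (CAR), which induces drug-metabolising enzymes, had the highest peak of the family, with a pileup of 49 (interval 36.3 to 64.8) and a fold enrichment of 33.0. It lay 4335 bp past the 3′ end of *Nr1i3* and overlapped *Apoa2*, the gene of an apolipoprotein of high-density lipoprotein, with its summit 18 bp from an *Apoa2* transcript start. A second peak, of pileup 22, lay 1898 bp past the 3′ end and 85 bp from a start of *Tomm40l*. Both were assigned to *Nr1i3* by distance alone, and no peak lay within its gene body. *Nr1i2* (PXR), the other xenobiotic receptor, had 2 odd peaks in the gene body. One of pileup 14 touched a coding exon 40499 bp from the 5′ end, and one of pileup 9 lay in an intron at 7943 bp. *Vdr*, the vitamin D receptor, had 1 intronic peak of pileup 12 with 13 bases of probe 1. The oxysterol receptors *Nr1h2* and *Nr1h3* (LXRβ and LXRα) and the bile acid receptor *Nr1h4* (FXR) had no peak, and *Nr1h4* had the largest distance to an odd peak of all receptor genes, 510764 bp.

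*Hnf4a*, a factor that maintains the hepatocyte state, had 3 odd peaks without a probe run. Their summits lay 640, 21479 and 63863 bp from the 5′ end, with pileups of 11, 18 and 7. The first was in an intron next to the promoter, and the last was in the 3′ untranslated region. Its relative *Hnf4g* had none, with 52.8% at similar length for the pair, and neither had any of the 3 retinoid X receptors (*Rxra*, *Rxrb* and *Rxrg*), for which genes of similar length gave a mean share of 31.3%. The 3 NR4 receptors (*Nr4a1*, *Nr4a2* and *Nr4a3*), which are early-response genes, had none either, with 24.7% at similar length. Groups of 2 or 3 genes are too few to separate 0 from such shares.

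Of the 7 orphan NR2 receptors, 3 had odd peaks, against 25.5% at similar length, and none of these peaks held a probe run. *Nr2c2* (TR4) had 3, all intronic, with pileups of 13, 11 and 10, and the middle one lay entirely within soft-masked repeat. Its paralogue *Nr2c1* (TR2) had 1 of pileup 13 that touched a coding exon. *Nr2e3*, known from photoreceptors, had 1 of pileup 10, 1285 bp from the 5′ end. *Nr2e1*, *Nr2f1*, *Nr2f2* and *Nr2f6* had none. The *Nr2c2* peak of pileup 10 and the *Nr2e3* peak held shorter stretches of probe 9 near the summit, below the 12 bases counted as a run.

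The estrogen and estrogen-related receptors held 8 odd and 2 even peaks, with an odd peak at 3 of 5 genes against 59.4% at similar length. *Esr1*, the estrogen receptor α of hepatocytes, had the second and the third highest odd peaks of the family. Their pileups were 39 (interval 27.7 to 53.3) and 37 (26.1 to 51.0) with fold enrichments of 26.4 and 25.1, and the intervals overlap. Both lay in introns, at 63594 and 138499 bp from the 5′ end, and only the second held a probe run. *Esrrg* (ERRγ) had odd peaks of pileup 9, 11, 8, 23 and 8 and even peaks of pileup 9 and 20, all in introns. The highest odd one (fold enrichment 15.8) lay 499081 bp and the highest even one (13.8, interval of the pileup 12.2 to 30.9) 162439 bp from the 5′ end. The closest odd and even peaks of *Esrrg* were 14609 bp apart. *Esrrb* had 1 odd peak of pileup 8, and *Esr2* and *Esrra* had no peak.

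Of the corticoid and progesterone receptors, *Nr3c2*, the mineralocorticoid receptor, had 2 intronic odd peaks. The one of pileup 22 held 13 bases of probe 7, and the one of pileup 9 lay entirely within soft-masked repeat. *Nr3c1*, the glucocorticoid receptor that drives gluconeogenic genes during fasting, had 1 odd peak of pileup 7, 1678 bp past its 3′ end. This was the lowest pileup among the receptor peaks, together with the 3′ peak of *Hnf4a*. *Pgr* had none, and the share at similar length was 60.4%.

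All 4 genes of the NR5, NR6 and NR0 group had an odd peak, against 40.9% at similar length. No other group had one at every gene, so this is the extreme of several small groups. *Nr5a1* (SF-1), a factor of steroid-producing tissues, had 1 of pileup 24 (interval 15.4 to 35.7, fold enrichment 16.5) 1105 bp past its 3′ end, with 15 bases of probe 13. *Nr6a1* had 1 of pileup 17 with 12 bases of probe 9. *Nr0b2* (SHP), a corepressor that dampens bile acid synthesis, had 1 of pileup 17 without a run, 1197 bp upstream of its 5′ end and the only upstream peak among the 50. *Nr5a2* (LRH-1), which activates bile acid synthesis genes, had peaks of both lists. The odd one, of pileup 9, lay in an intron 107476 bp from the 5′ end. The even one, of pileup 8, touched a coding exon at 16963 bp, so that they were 90347 bp apart.

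**Figure D3:**
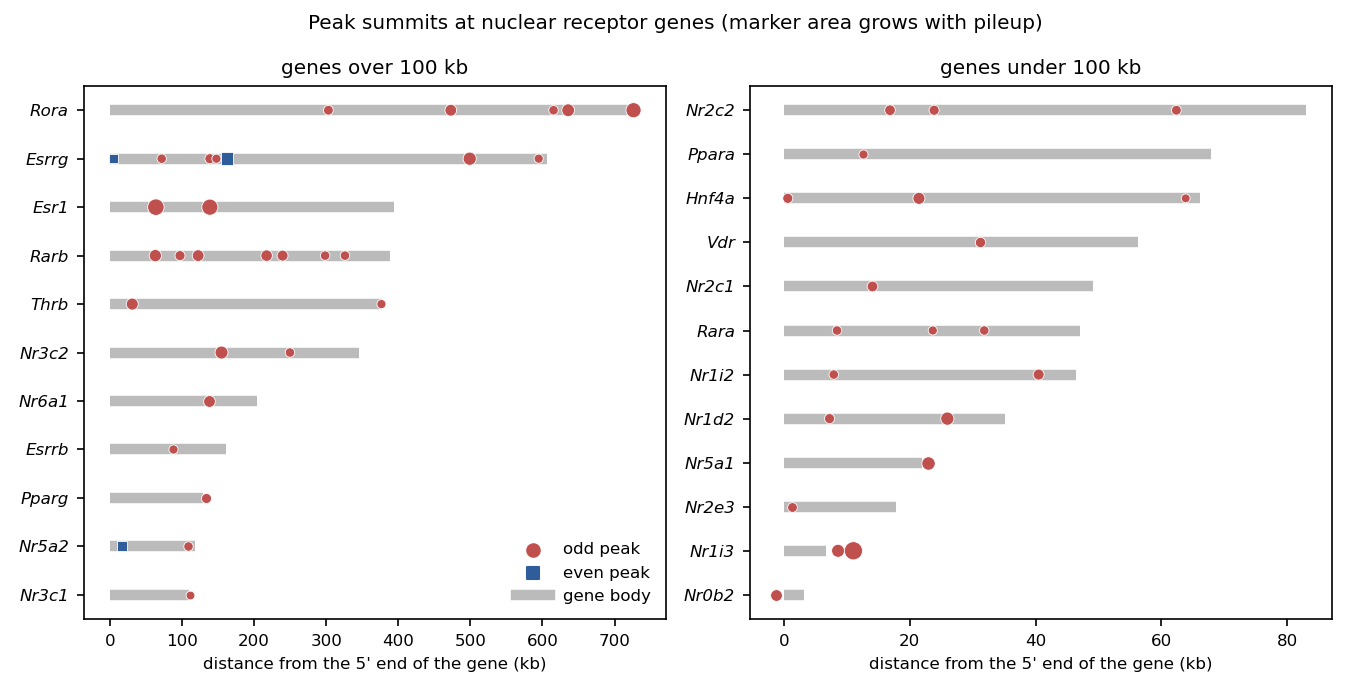
Summits of odd (red circles) and even (blue squares) peaks along the 23 receptor genes with a peak, as the distance from the 5′ end of the gene (x axis, kb), with the gene body in grey and the marker area growing with the pileup. The 3 longest rows with many circles are *Rora*, *Esrrg* and *Rarb*, and blue squares appear at *Esrrg* and *Nr5a2* without an odd circle at the same place.

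The heights were set beside those of other genes. The median fold enrichment of the odd peaks was 7.91 at receptor genes and 7.91 at all protein-coding genes, and 36% against 32.7% reached 10. Fold enrichments over 20 were found at 4 receptor peaks, at *Nr1i3*, *Esr1* (2) and *Rora*. The 3 even peaks, at 6.57, 13.8 and 5.91, stood beside a median of 7.23 over all protein-coding genes.

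**Figure D4:**
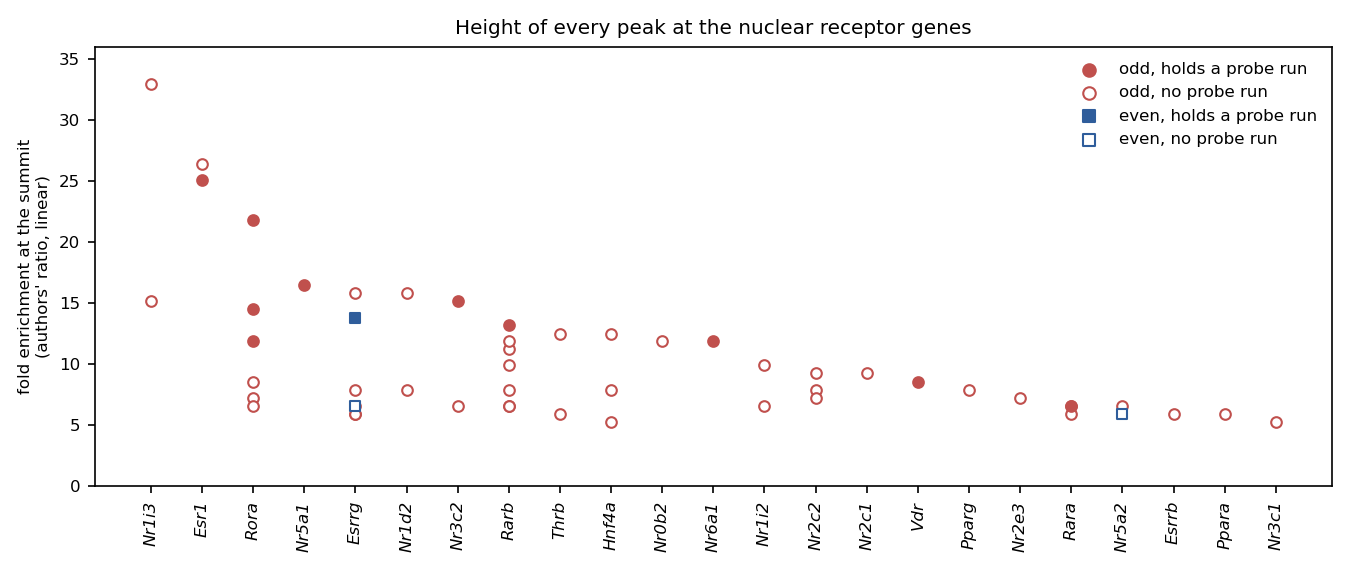
Fold enrichment at the summit (y axis, linear ratio) of each of the 50 odd (red circles) and 3 even (blue squares) peaks, by receptor gene in order of the highest peak (x axis), with filled markers for peaks that hold a run of at least 12 probe bases. Values run from 5.28 to 33.0, and the highest marker, at *Nr1i3*, is open.

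Most of the odd peaks lay inside the genes and away from their starts. Introns held 38 of 50 (76.0%, interval 62.6 to 85.7), the 3′ flank 5, 3′ untranslated regions 3, coding exons 2, a 5′ untranslated region 1 and the 5′ flank 1. Of the 44 summits in gene bodies, 18 lay in the first, 9 in the middle and 17 in the last of 3 equal parts of the gene. Neither the places nor these parts were counted over all protein-coding genes, so whether they are particular to the receptors was not tested. An odd peak within 3000 bp of the 5′ end was found at 3 receptor genes (*Hnf4a*, *Nr0b2* and *Nr2e3*, 6.67%), against 6.57% of all protein-coding genes and a mean of 6.76% at similar length. The 5′ end is the outermost one, and the *Nr2e3* summit lay 9257 bp from the nearest start of a protein-coding transcript. Counted from any such start, of any gene, 7 of the 50 odd peaks lay within 3000 bp. They were 2 each at *Nr1i3* (starts of *Tomm40l* and *Apoa2*) and *Rara* and 1 each at *Hnf4a*, *Nr0b2* and *Rora*. This count was not made over all odd peaks at protein-coding genes. RefSeq promoter windows, from 250 bases before to 50 after a gene start, were given for 41 of the receptor genes, and 0 of 62 windows overlapped a peak of either list, which allows up to 4.84%. Of 20150 such windows of protein-coding genes, 1.49% overlapped an odd peak and 0.189% an even peak. For 5 receptor genes (*Nr0b2*, *Nr1i3*, *Nr3c1*, *Nr5a1* and *Pparg*) the odd peaks lay in the flanks alone, which is 21.7% of those with an odd peak against 21.0% over all protein-coding genes.

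Many nuclear receptors recognise variants of the hexamer AGGTCA. Either strand of this hexamer occurred within 201 bases centred on the summit in 10 of the 50 odd peaks (20%, interval 11.2 to 33.0), against 13.1% of the odd peaks at all protein-coding genes. The peaks that held it lay at *Esrrg*, *Hnf4a*, *Nr0b2*, *Nr2c1*, *Nr2c2*, *Nr3c1*, *Rarb* and *Thrb*. Of the 3 even peaks, 1 held it, at *Esrrg*, against 15.1% of even peaks at all protein-coding genes. There the hexamer lay wholly within the run of probe 4 printed above. Any peak with this run holds the hexamer, so that hit follows from the probe match and is a description only.

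Genes that work with the receptors were counted in the same way. Of 20 coregulators, which the receptors recruit to chromatin, 11 had an odd peak (55.0%, interval 34.2 to 74.2) and 2 an even peak (10.0%, 2.79 to 30.1), and 0 had overlapping peaks. At similar length the mean shares were 47.0%, 14% and 1.51%, and both intervals contained them. The highest were at *Ncoa3*, a coactivator, with a pileup of 81 and a fold enrichment of 54.1, and at *Tbl1xr1*, a corepressor subunit, with a pileup of 33, and both held a probe run. Of 30 hepatic target genes of the receptors, 13 had an odd peak (43.3%, interval 27.4 to 60.8) and 4 an even peak (13.3%, 5.31 to 29.7), and 0 had overlapping peaks. At similar length the mean shares were 25.2%, 6.63% and 0.784%. The odd share of the targets lay above that at similar length and the lower end of its interval was above it too. However, the list was chosen with results of these data known, and 1 odd peak counted for both *Apoa1* and *Apoc3*, which are neighbours. The interval allows for neither point, so the difference is a description only. The highest were downstream of *G6pc*, the last enzyme of gluconeogenesis, with a pileup of 46, and at a coding exon of *Tat*, which degrades tyrosine, with a pileup of 39, neither with a probe run.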

How the data were processed

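Per the file headers, the authors ran MACS2 (2.1.1.20160309) on each ChIRP-seq library by itself. They used no control, model or local background, extended reads to 200 bp, held 1 read at each position and limited the q-value to 0.05. The submitters' processing notes also name Novoalign (4.02.02), SAMtools (1.9) and mm10. The deposited pileup is the signal at the summit and is not scaled between libraries. The deposited fold enrichment is a ratio to the library's background. The deposited −log10 p-value and q-value columns had damaged headings and were identified by the order MACS2 writes. In the even list, 1 start position was restored from its end and length. Regions that collect reads in any library were not removed, and the peak calling had no control that would show them. Reads without molecular identifiers are not independent molecules.

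Samples were assigned to the odd or even probes from their labels. Members, lists and rules were chosen with earlier results of these data known, the hexamer search last. Every receptor gene with a peak was named, and those with the highest peaks or with peaks of both lists were given in full. Genes came from GENCODE vM21, and overlap required 1 bp. Distances count from the outermost 5′ end of the gene, and places take any of its transcripts. Probe letters were read from page images, so the 11 of 14 probes found in the annotated *Gm19619* RNA were searched (6 odd, 5 even), and runs of the other probes were not analysed here. Shares carry 95% Wilson intervals and pileups exact Poisson intervals. The search was tried on 1000 simulated regions of random bases with made-up probes, of which a part held planted runs. It found 100% of the planted runs and called 0.200% of the other regions. That value is not a background rate for the mouse genome or the real probes. Python 3.11.15, numpy 2.4.6, pandas 2.3.3, scipy 1.17.1 and matplotlib 3.10.9 were used. The closing section gives the other windows, thresholds and length limits tried.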

Additional observations from a re-analysis of the deposited data

How the results depend on the processing

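The counts of receptor genes were 23 with an odd peak, 2 with an even peak and 0 with overlapping peaks, and the shares at similar length 41.4% and 13.9%. Restricting peaks to the gene body left 18 receptor genes with an odd peak and shares of 36.7% and 12.3%, and 10000 bp on each side gave 24 with shares of 45.0% and 15.2%. Within 3000 bp of the 5′ end there were 3 odd and 0 even, with 6.76% and 1.27%. With fold enrichments of 10 or more, 12 odd and 1 even remained, with 19.2% and 3.01%. A −log10 q of at least 5 left 22 odd and 1 even, with 39.3% and 10.1%, and a pileup over 5 with a length over 200 bp left 19 and 2, with 37.9% and 11.1%. Leaving out peaks with a probe run gave 20 odd and 2 even, with 34.0% and 12.6% for the 10 probes found in the DNA of *Gm19619*, and with 34.0% and 10.2% for 11 probes, an alternative chosen after seeing the data. The even count of 2 there is the same because *Esrrg* has a second even peak. A length limit of 2 times gave 40.4% and 13.1%. Counting odd and even peaks in one window without overlap gave 2 genes in place of 0. The main shares at similar length had intervals of 40.7% to 42.1% (odd) and 13.4% to 14.4% (even). In all, 24 recomputed values moved by over 1.5 times for counts or left these narrow intervals, and 27 did neither. A share recomputed under another window or threshold readily leaves them, so the tally says little about the receptor counts. With 1 library per probe set, no replicate could be left out. No paired analysis was possible because each probe set had 1 library. Weak peaks can have been missed in either library, since 11.4% of the odd reads and 10.7% of the even ones passed the removal of duplicates.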
